A study of Mus musculus with 13 samples.

Results

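The unfolded protein response (UPR) and the folding and export machinery of the endoplasmic reticulum (ER) were followed through 44 genes in single-cell RNA sequencing of the mouse colon epithelium. The 44 genes were taken by symbol from the 32285 rows of the deposited matrix, where all of them were found, and the rule used no measured value. By role they fell into 4 stress sensors, 4 transcription factors and outputs, 11 chaperones and cochaperones, 5 disulfide isomerases, 10 genes of translocation and signal peptide removal, 7 genes of degradation and 3 genes of retrieval and cargo transport.

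Secreted and membrane proteins enter the ER through the Sec61 channel, lose their signal peptide, and fold there with the help of chaperones and of isomerases that form disulfide bonds. When unfolded proteins accumulate, the sensors IRE1, ATF6 and PERK slow the entry of new protein and raise genes for folding, export and degradation. Goblet cells depend on this machinery because they secrete very large, disulfide-linked mucins, whereas colonocytes mainly absorb and crypt cells mainly divide.

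Wild type C57BL/6J mice given antibiotics were set beside Germ-free C57BL/6J mice, which are raised without microbes. Colon epithelium was freed with EDTA and Dispase II, pooled by condition, and sorted for equal numbers of EPCAM+ CD45- cells with CD44 (proliferative) and without it (differentiated). The 5 cDNA libraries were made with a 10x 3' kit, 3 from antibiotic and 2 from germ-free mice. The other 8 of the 13 libraries hold sample barcodes and were not used here, so the pools were not split by sample. The series also describes control mice, which were not analysed here, so neither condition was set against mice with an untreated microbiota. The antibiotics, the age and sex of the mice and the number pooled are details not given in the sources used here. Per the labels, all antibiotic libraries are batch1 and all germ-free libraries batch2, and the effect of condition therefore cannot be told apart from that of batch.

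The 3415 antibiotic cells fell into 3 numbered cell sets of 832, 1149 and 1434 cells, and the 768 germ-free cells into 2 of 306 and 462. Values per cell set are given in that order throughout. Each condition was 1 pool, and cells were not assigned to samples within it. No test was therefore made, and cell sets are a guide to spread within a pool, not replicates. The median cell held 6993 UMI (unique molecules counted) in antibiotic and 2873.5 in germ-free mice, and 6759.5, 6599, 7420, 1045 and 4681.5 in the 5 sets, so germ-free set 3 was the shallowest. The mitochondrial share of UMI was 12.4% with antibiotics and 18.7% without microbes. Of 3346 distinct cell barcodes, 810 occurred in more than 1 antibiotic cell set and none in both germ-free sets. For barcodes shared by sets 1 and 2 (315) and by sets 2 and 3 (501), the deeper copy held a median of 16.1 and 9.73 times the UMI of the shallower one. The shallower copies were 837 of the 3415 antibiotic cells and made up 3.40% of antibiotic UMI. Without them the median antibiotic cell held 10025.5 UMI, and the goblet, colonocyte and crypt gates held 172, 981 and 362 antibiotic cells with medians of 8009, 14818 and 7772 UMI. Cell counts, median depths and shares of cells given here include the copies. Without them 1 of 68 named calls was lost, that of Ddit3 in the crypt gate between conditions. Markers of plasma and B cells, another cell type with a large ER, summed to 2.44 CPM (counts per 1e6 UMI) in antibiotic cells, where 1 of 6 was at 0, and to 0.967 CPM in germ-free cells, where 4 of 6 were at 0. Markers of other immune cells summed to 1.23 and 1.29 CPM, and stromal markers to 3.39 and 2.90 CPM. Markers of cells outside the epithelium were thus at or near 0.

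Cells were sorted into marker gates that used none of the 44 genes. The goblet gate took cells with at least 40 of 10000 UMI in 8 goblet markers (Muc2, Fcgbp, Tff3, Spink4, Clca1, Zg16, Spdef and Atoh1) and held 216 antibiotic and 95 germ-free cells. It was split into deep crypt secretory cells (118 and 20), led by Reg4, Kit, Spink4, Dll1, Dll4 and Egf, and mucus goblet cells (93 and 73), led by Zg16, Clca1 and Fcgbp. The colonocyte gate took other cells with at least 50 of 10000 UMI in 8 markers such as Slc26a3, Car1 and Aqp8, and held 1312 and 280 cells. The crypt gate took cells with at least 8 of 10000 UMI and 3 UMI in 15 stem and cycling markers such as Lgr5, Ascl2 and Mki67, without the colonocyte share, and held 428 and 125 cells. Cells in no gate numbered 1440 and 255, and 19 and 13 cells that met both the colonocyte and the crypt marker share were placed in neither of those gates. The median UMI was 6416.5 and 2435 in the goblet gate, 10474 and 3561 in the colonocyte gate, and 6580.5 and 3594 in the crypt gate. A gate is a range of a marker share and not a cell type. Between 32 and 50 of 10000, around its cut, the goblet gate had 28 antibiotic cells below and 37 above. Over the same fold range the colonocyte gate had 168 and 161, and the crypt gate 138 and 116.

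In each comparison a gene was measured if both sides together held at least 100 UMI. It was called higher or lower if the ratio of CPM + 1 reached 1.5-fold and the cell sets had the same order. Between gates that order means the same direction in every cell set, and between conditions it means that the germ-free sets lay all above or all below the antibiotic sets. Ranges in parentheses after a ratio or level are 95% intervals of counting error. They say nothing about mice.

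**Figure D1:**
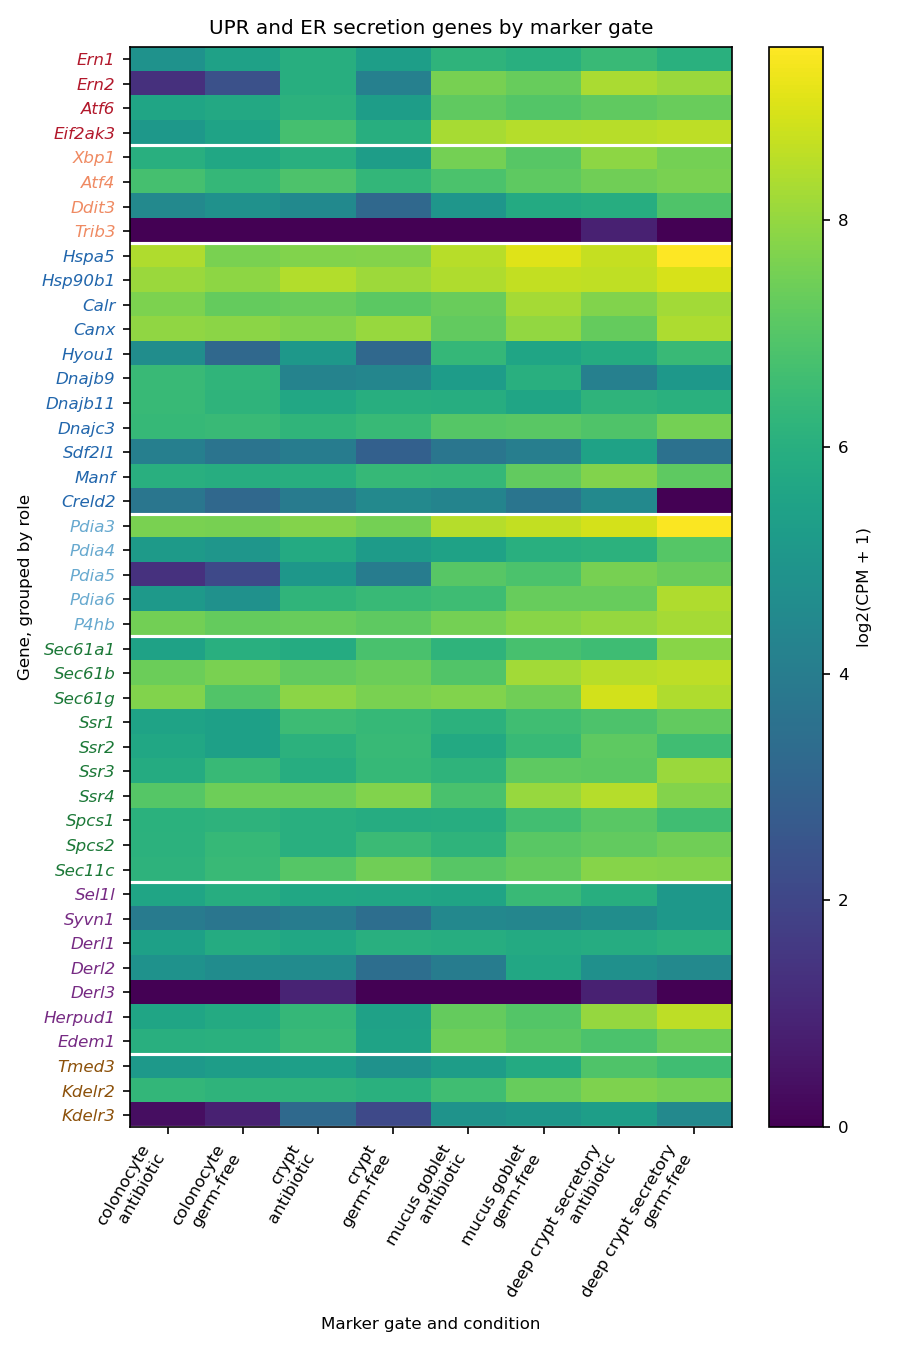
Level of each of the 44 genes as log2(CPM + 1), by marker gate and condition, with genes grouped by role. The goblet columns stand out for Ern2, Pdia5 and Kdelr3, which are near 0 in the colonocyte columns, while Dnajb9 shows the opposite order in antibiotic cells.

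The gene list was higher in goblet cells than in colonocytes. In antibiotic mice 29 of 41 measured members were higher in the goblet gate and 2 were lower, where 33.1% of all 9241 measured genes were called higher and 20.1% lower. Their median log2 ratio was 0.95, against 0.24 over all measured genes. In germ-free mice 21 of 26 measured members were higher and none was lower, against 17.7% and 22.5% of 2715 genes, with medians of 0.96 and -0.017. The 15 members higher in both conditions were Xbp1, Atf6, Eif2ak3, Pdia3, Pdia6, Manf, Sec61a1, Sec61b, Sec61g, Ssr3, Spcs2, Sec11c, Herpud1, Edem1 and Kdelr2. The share of all genes called higher in both conditions was not taken, and only the 26 members measured in germ-free cells could be among them. Scaling by median ratios moved the median of all genes in antibiotic mice by -0.38. After it 19 members were higher and 4 lower, beside 1768 higher and 2942 lower of the 9241 genes. Thinning every cell to 1000 UMI left 14 members measured and 4 higher. Dissociation-response genes, which rise when tissue is taken apart, summed to 5102 CPM in the antibiotic goblet gate and 3355 CPM in the colonocyte gate, and their part was not tested. Without the deeper germ-free set 4, no member was called in germ-free mice, since the remaining set 3 held 42 goblet cells with 55588 UMI.

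**Figure D2:**
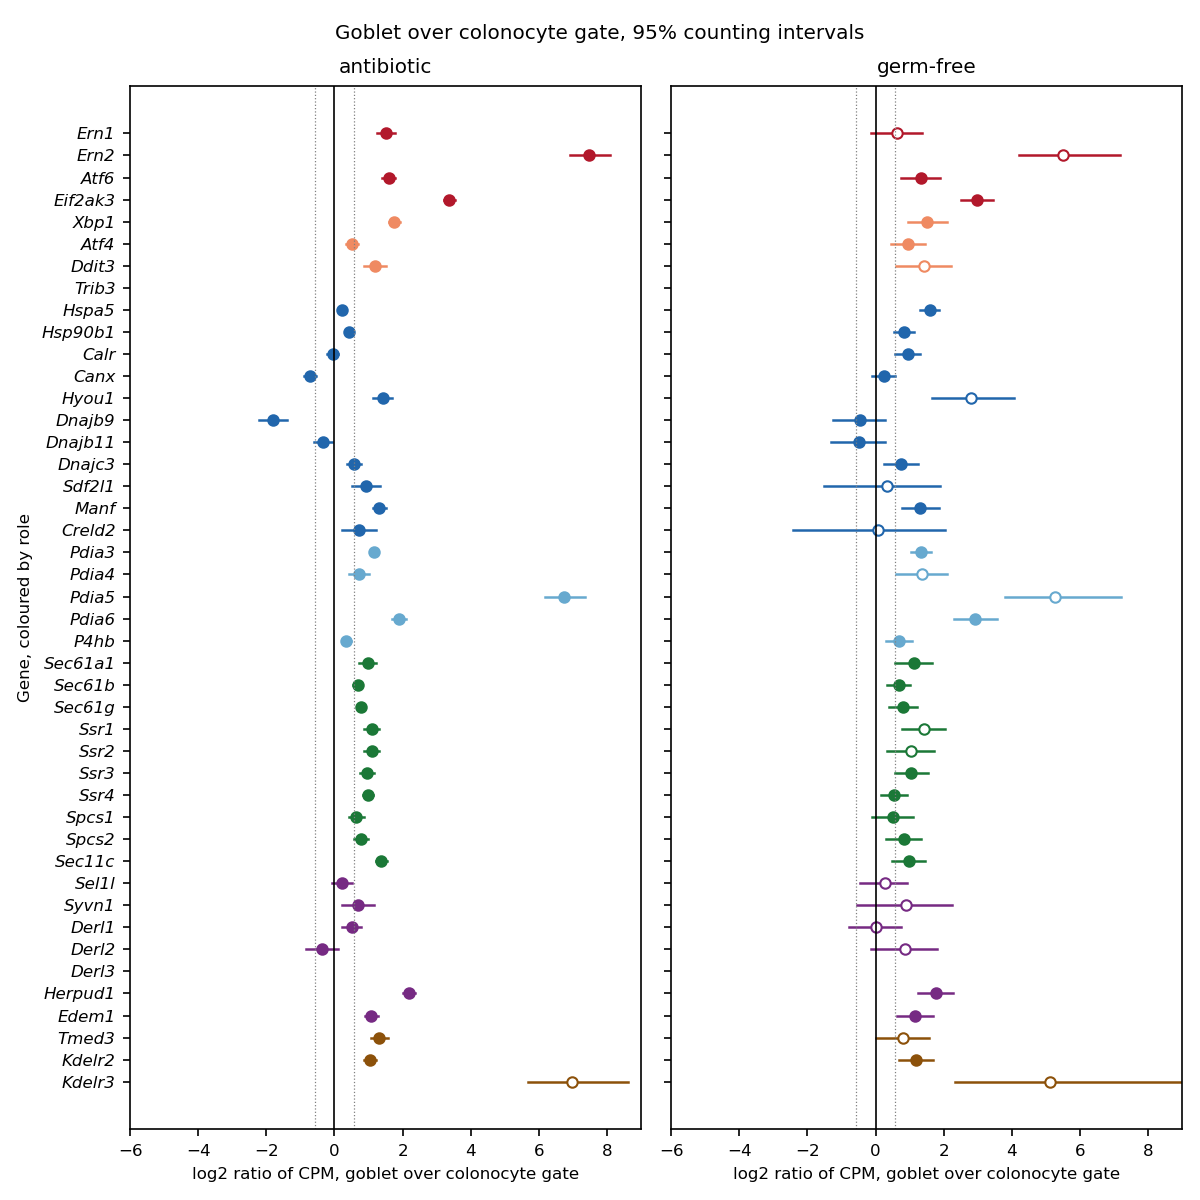
Log2 ratio of CPM between the goblet and the colonocyte gate for each gene, in antibiotic (left) and germ-free cells (right), with 95% counting intervals. Filled points had at least 100 UMI in both gates together, open points fewer, and dotted lines mark 1.5-fold. The germ-free interval of Kdelr3 runs past the axis.

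By role, the sensors had the largest median difference between these gates in antibiotic cells. Ern2 encodes IRE1 beta, the IRE1 form of mucus-secreting epithelium, and lies at chr7:122169893-122186239 (GRCm38.p6). It stood at 270.1, 280.5 and 249 CPM in the goblet gate of the 3 antibiotic sets and at 0.771, 2.45 and 1.13 CPM in the colonocyte gate. Every goblet value lay far above every colonocyte value, and the pooled levels of 265 and 1.502 CPM differed 176-fold (119.8 to 270.1). At least 1 Ern2 UMI was found in 67.1% of antibiotic goblet-gate cells and 1.60% of colonocyte-gate cells, although the latter were deeper. With each cell thinned to 1000 UMI these shares were 28.0% (21.6 to 35.1) and 0.168% (0.0204 to 0.607). In germ-free cells Ern2 stood at 36.0 and 217 CPM in the goblet gate and 6.81 and 3.75 CPM in the colonocyte gate. Its 65 and 5 UMI there fell short of the minimum, and the pooled ratio was 45.6 (18.6 to 145). The germ-free goblet sets differed widely, and set 3 was the low one.

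Eif2ak3, at chr6:70844484-70905241, encodes PERK, the kinase that slows translation. In the goblet gate it stood at 287, 309 and 391 CPM in antibiotic sets and 449.7 and 338 CPM in germ-free sets. In the colonocyte gate the sets held 37.8, 33.1 and 30.0 CPM against 13.6 and 49.7 CPM. No goblet value overlapped a colonocyte value in either condition. The goblet level was 10.3-fold (9.25 to 11.6) higher in antibiotic cells and 7.85-fold (5.67 to 11.0) higher in germ-free cells.

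Atf6, a membrane-bound transcription factor released by cleavage, stood at 135, 121 and 170.0 CPM in antibiotic goblet sets and 55.0, 47.0 and 45.4 CPM in colonocyte sets. It was 3.02-fold (2.63 to 3.45) higher in the goblet gate, and 2.52-fold (1.69 to 3.74) higher in germ-free cells. Ern1, the IRE1 gene expressed in most tissues, stood at 81.5, 78.3 and 81.5 CPM in antibiotic goblet sets and 29.3, 31.1 and 25.0 CPM in colonocyte sets, a difference of 2.87-fold (2.39 to 3.43). In germ-free cells the Ern1 levels were 66.6 and 42.9 CPM, with too few UMI to be measured. The 4 sensors were thus all higher in antibiotic goblet cells, with a median log2 ratio of 2.45.

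**Figure D3:**
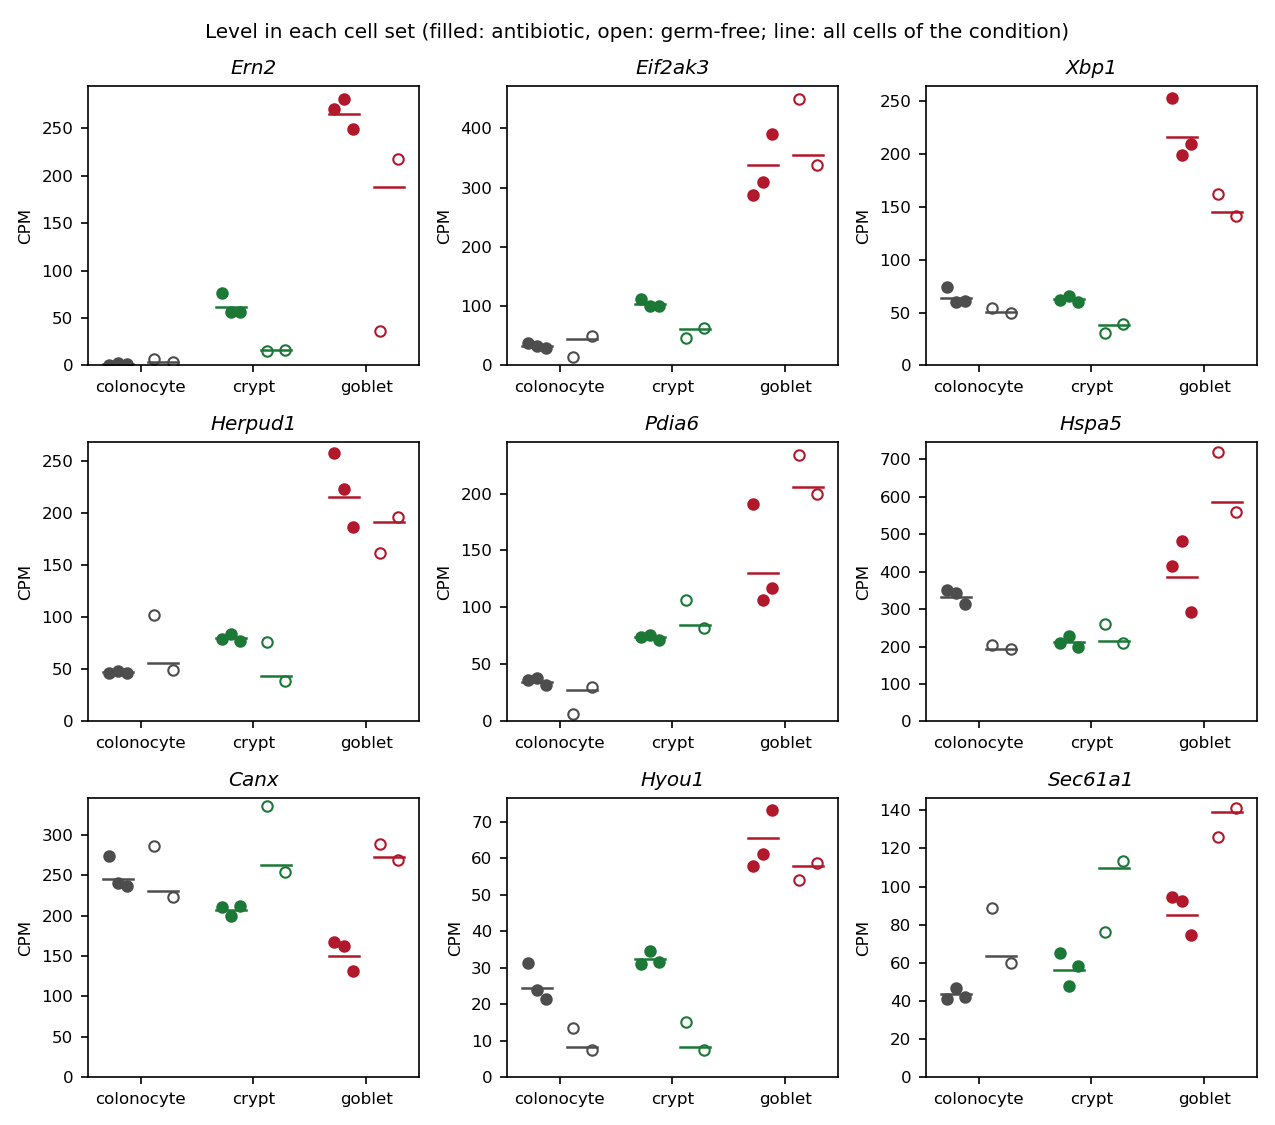
CPM of 9 genes in the goblet, colonocyte and crypt gates of each cell set. Filled points are antibiotic sets, open points germ-free sets, and lines the pooled level of the gate in a condition. Ern2, Eif2ak3, Herpud1 and Xbp1 separate the goblet gate from the colonocyte gate, while Hspa5 and Canx overlap between gates or change order between conditions.

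Of the transcription factors, Xbp1 (chr11:5520641-5525993), whose RNA is spliced by IRE1, stood at 253, 199 and 209 CPM in antibiotic goblet sets and 74.2, 60.1 and 61.4 CPM in colonocyte sets. In germ-free cells the values were 162 and 141 CPM against 54.5 and 49.7 CPM. The groups did not overlap, and the goblet level was 3.39-fold (3.03 to 3.79) higher in antibiotic and 2.88-fold (1.94 to 4.25) higher in germ-free cells. These counts cover the gene as a whole and do not tell spliced from unspliced Xbp1 RNA. Atf4, the main factor translated when PERK is active, stood at 210.1, 124 and 138 CPM in antibiotic goblet sets and 114, 101 and 102 CPM in colonocyte sets. That ratio of 1.43 (1.26 to 1.62) was under 1.5, whereas in germ-free cells Atf4 was 1.95-fold (1.37 to 2.75) higher in the goblet gate. Ddit3, which encodes the death-promoting factor CHOP, stood at 32.2, 68.3 and 41.3 CPM in antibiotic goblet sets and 20.3, 23.2 and 20.1 CPM in colonocyte sets, 2.29-fold (1.82 to 2.87) higher in the goblet gate. Trib3, a target of CHOP, had 2 UMI in all antibiotic cells and 0 in germ-free cells, where 0 allows up to 0.967 CPM.

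Chaperones did not share one direction. Of 11 measured in antibiotic cells, Sdf2l1, Manf, Creld2 and Hyou1 were higher in the goblet gate, Dnajb9 and Canx were lower, and the median log2 ratio was 0.42. Hspa5 (chr2:34772090-34776529) encodes BiP, the main ER chaperone and the protein whose release sets off the sensors. It stood at 416, 481 and 292 CPM in antibiotic goblet sets and 352, 343 and 314 CPM in colonocyte sets. These ranges overlapped, and the pooled ratio was 1.16 (1.08 to 1.253). In germ-free cells Hspa5 stood at 719.6 and 559 CPM against 204 and 192 CPM, with no overlap, and was 3.02-fold (2.49 to 3.66) higher in the goblet gate.

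Canx (chr11:50293957-50325673) encodes calnexin, a lectin chaperone anchored in the ER membrane. It stood at 167, 162 and 131 CPM in antibiotic goblet sets and 273, 239.6 and 237 CPM in colonocyte sets, 1.63-fold (1.45 to 1.84) lower in the goblet gate with no overlap. In germ-free cells the values were 288 and 269 CPM against 286 and 223 CPM, which overlapped, with a ratio of 1.18 (0.923 to 1.49). Dnajb9, a cochaperone that restrains IRE1, stood at 17.1, 27.0 and 27.2 CPM in antibiotic goblet sets and 97.6, 85.1 and 80.7 CPM in colonocyte sets, 3.46-fold (2.61 to 4.68) lower in the goblet gate. In germ-free cells its levels were 89.9 and 48.3 CPM in goblet sets and 75.0 and 75.0 CPM in colonocyte sets, where the order differed between sets.

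Manf, a secreted ER stress factor, was 2.49-fold (2.20 to 2.83) higher in antibiotic and 2.49-fold (1.70 to 3.61) higher in germ-free goblet cells. Hyou1, a large relative of BiP that acts as its nucleotide exchange factor, stood at 57.9, 61.2 and 73.2 CPM in antibiotic goblet sets and 31.3, 23.9 and 21.6 CPM in colonocyte sets, a difference of 2.67-fold (2.19 to 3.26). Calr (calreticulin, the soluble relative of calnexin) and Hsp90b1 (GRP94) were not called in antibiotic cells, with ratios of 0.964 (0.866 to 1.07) and 1.34 (1.23 to 1.44). Both were higher in germ-free goblet cells, by 1.92-fold (1.497 to 2.46) and 1.79-fold (1.46 to 2.19), as were Hspa5, Manf and Dnajc3 among the 8 chaperones measured there.

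Promoters were read for the members because many chaperone genes are known targets of ATF6 and XBP1 through the ER stress response element (ERSE). RefSeq windows from 250 bases before to 50 after the start site (GRCm38.p6) matched 35 of the 44 genes, too few for a count over the list. The ERSE, written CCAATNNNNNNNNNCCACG and searched on both strands, was held by 39 of 32851 windows of all genes, or 0.119%. Members with a match were Hspa5, Hsp90b1, Calr, Canx, Pdia6, Dnajc3, Creld2, Syvn1 and Derl3. The ERSE-II, written ATTGGNCCACG, was held by 12 windows (0.0365%), among them those of Dnajb11 and Herpud1. TGACGTGG, in 222 windows (0.676%), was found in that of Kdelr3, and TGATGNAAT, in 317 (0.965%), in none of the members. Matches did not overlap one another in the members' windows. The 250 bases before the start are printed for Hspa5, chr2:34771840-34772089 (plus strand), Calr, chr8:84846932-84847181 (minus strand), Canx, chr11:50325674-50325923 (minus strand), Pdia6, chr12:17266339-17266588 (plus strand), and Herpud1, chr8:94386179-94386428 (plus strand). The first 4 are the members with an ERSE whose level differed between conditions in the goblet gate, and Herpud1 is the degradation gene with the largest goblet ratio. Capitals mark the match, ERSE in the first 4 and ERSE-II in Herpud1. A match describes the letters and is not a shown binding site.
Hspa5: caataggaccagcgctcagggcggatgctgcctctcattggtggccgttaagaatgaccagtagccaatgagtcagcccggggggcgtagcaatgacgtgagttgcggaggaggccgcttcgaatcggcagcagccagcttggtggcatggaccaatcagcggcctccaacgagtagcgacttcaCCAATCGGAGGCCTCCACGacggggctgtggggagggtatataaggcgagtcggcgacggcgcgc
Calr: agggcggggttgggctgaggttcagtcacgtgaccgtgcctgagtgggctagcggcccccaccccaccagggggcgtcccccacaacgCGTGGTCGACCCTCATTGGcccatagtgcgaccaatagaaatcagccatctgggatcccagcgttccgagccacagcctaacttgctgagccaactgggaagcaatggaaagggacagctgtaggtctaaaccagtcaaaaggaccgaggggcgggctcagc
Canx: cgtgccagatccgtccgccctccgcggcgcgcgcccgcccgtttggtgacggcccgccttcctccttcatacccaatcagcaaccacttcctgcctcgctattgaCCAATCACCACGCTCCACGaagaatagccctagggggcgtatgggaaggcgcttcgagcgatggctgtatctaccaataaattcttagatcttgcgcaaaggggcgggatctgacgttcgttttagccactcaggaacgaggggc
Pdia6: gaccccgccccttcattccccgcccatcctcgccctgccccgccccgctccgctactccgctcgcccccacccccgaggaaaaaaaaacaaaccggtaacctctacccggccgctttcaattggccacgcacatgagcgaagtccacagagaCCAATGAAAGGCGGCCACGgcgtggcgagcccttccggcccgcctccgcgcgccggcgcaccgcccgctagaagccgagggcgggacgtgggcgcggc
Herpud1: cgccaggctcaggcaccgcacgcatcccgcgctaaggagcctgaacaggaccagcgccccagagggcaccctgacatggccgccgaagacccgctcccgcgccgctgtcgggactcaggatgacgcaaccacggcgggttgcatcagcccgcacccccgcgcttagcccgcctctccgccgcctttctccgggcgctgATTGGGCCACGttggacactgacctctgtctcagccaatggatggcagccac

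Disulfide isomerases were mostly higher in goblet cells, 4 of 5 in antibiotic mice and 3 of 3 measured in germ-free mice. Pdia5 (chr16:35397308-35490919), an isomerase known to act on ATF6, stood at 176, 192 and 139 CPM in antibiotic goblet sets and 2.05, 1.64 and 1.255 CPM in colonocyte sets. The colonocyte values were near 0, and the goblet level was 107-fold (72.5 to 163) higher. The germ-free levels of 127 and 3.30 CPM had the same order with too few UMI (44 and 4) to be measured. Pdia6, an isomerase that restrains IRE1 and PERK, stood at 191, 107 and 117 CPM in antibiotic goblet sets and 36.2, 38.1 and 32.0 CPM in colonocyte sets, 3.73-fold (3.22 to 4.31) higher. In germ-free cells Pdia6 stood at 234 and 200.01 CPM against 6.81 and 30.0 CPM and was 7.55-fold (4.93 to 11.8) higher. Pdia3, which folds glycoproteins held by calnexin and calreticulin, was 2.25-fold (2.08 to 2.42) and 2.53-fold (2.06 to 3.10) higher in the 2 conditions. P4hb, the archetypal protein disulfide isomerase, had a ratio of 1.28 (1.15 to 1.41) in antibiotic cells and was 1.62-fold (1.24 to 2.11) higher in germ-free goblet cells.

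All 10 translocation genes were higher in antibiotic goblet cells, within a narrow range of 1.56-fold for Spcs1 to 2.59-fold for Sec11c, both of the signal peptidase complex. Sec61a1, the channel subunit, stood at 94.3, 92.5 and 74.4 CPM in goblet sets and 41.1, 46.6 and 42.3 CPM in colonocyte sets, 1.96-fold (1.65 to 2.32) higher. Its partners Sec61b and Sec61g were 1.60-fold and 1.71-fold higher, and the 4 Ssr genes of the translocon-associated complex between 1.95-fold and 2.13-fold. Thus no subunit of these complexes departed from the others in direction. In germ-free goblet cells 6 of 8 measured translocation genes were higher, with Sec61a1 at 126 and 141 CPM against 88.6 and 60.023 CPM, a difference of 2.19-fold (1.49 to 3.18). Ssr4 and Spcs1 were the exceptions, with ratios of 1.47 (1.13 to 1.89) and 1.43 (0.936 to 2.14).

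Degradation genes were split. Herpud1, which organises the complex that sends misfolded proteins out of the ER, stood at 257, 224 and 187 CPM in antibiotic goblet sets and 46.2, 48.4 and 46.7 CPM in colonocyte sets. It was 4.57-fold (4.07 to 5.14) higher, and 3.41-fold (2.39 to 4.85) higher in germ-free goblet cells. Edem1, which trims mannose from misfolded glycoproteins, was 2.12-fold (1.85 to 2.42) and 2.25-fold (1.55 to 3.25) higher, and Syvn1, the ubiquitin ligase HRD1, 1.62-fold (1.16 to 2.21) higher in antibiotic goblet cells. The other 3 measured genes were not called: Sel1l, the HRD1 adaptor, had a ratio of 1.17 (0.950 to 1.42), and the channel-forming derlins Derl1 and Derl2 had 1.42 (1.16 to 1.73) and 0.783 (0.562 to 1.07). Derl3 had 6 UMI in all antibiotic cells and 0 in germ-free cells.

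Of the retrieval genes, Kdelr2, a receptor that returns escaped ER proteins from the Golgi, was 2.07-fold (1.83 to 2.34) and 2.27-fold (1.60 to 3.21) higher in goblet cells of the 2 conditions. Tmed3, a cargo adaptor of early transport vesicles, was 2.49-fold (2.09 to 2.95) higher in antibiotic goblet cells. Kdelr3, a further KDEL receptor, stood at 47.2, 29.9 and 31.9 CPM in antibiotic goblet sets and 0.257, 0.491 and 0.125 CPM in colonocyte sets. With 70 and 5 UMI it missed the minimum, and its ratio was 125 (51.0 to 396).

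Within the antibiotic goblet gate, most calls between deep crypt secretory cells and mucus goblet cells fell on translocation genes. In all, 16 of 35 measured members were higher in deep crypt secretory cells and 1 was lower, where 15.9% of 3521 genes were called higher and 10.8% lower. The members' median log2 ratio was 0.52, against 0.051 over all measured genes, and ran from 0.36 to 1.15 over the 3 cell sets. In set 1 the mucus goblet gate held 15 cells with 62659 UMI, against 31 deep crypt secretory cells with 402383 UMI. Of the 16, 9 were translocation genes, of 10 measured, and both measured retrieval genes were among them. Sensors, chaperones, isomerases and degradation each had 1 higher member, of 4, 8, 5 and 4 measured. Ssr4 stood at 278, 374 and 400.4 CPM in deep crypt secretory sets and 63.8, 126 and 102 CPM in mucus goblet sets, 3.23-fold (2.56 to 4.11) higher with no overlap. Tmed3 was 3.12-fold (2.11 to 4.76) higher, Sec61b 2.96-fold (2.37 to 3.73), Ssr2 2.63-fold (1.88 to 3.75), Manf 2.60-fold (1.98 to 3.48) and Sec61g 2.23-fold (1.87 to 2.66). Sec61a1, at 102, 117 and 69.0 CPM against 47.9, 66.0 and 80.1 CPM, was the translocation gene without a call.

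Among sensors of the goblet subtypes, Ern2 stood at 273, 388 and 290.0 CPM in deep crypt secretory sets and 255, 159 and 204 CPM in mucus goblet sets, 1.66-fold (1.37 to 2.02) higher, but this call was lost without antibiotic set 2 (log2 ratio 0.42), with totals without mitochondrial genes (0.57), with cells of at least 1000 UMI and at most 15% mitochondrial UMI (0.53) and with stricter gates (0.29). Eif2ak3 stood at 273, 295 and 488 CPM against 383, 324 and 286 CPM, with sets in differing order. Ern1 and Atf6 had ratios of 1.19 (0.857 to 1.68) and 0.991 (0.780 to 1.26). Xbp1 and Hspa5 had 1.28 (1.04 to 1.57) and 1.13 (0.976 to 1.31), so neither was called. Atf4 was 1.53-fold (1.19 to 1.98) higher, but its log2 ratio was 0.38 without antibiotic set 1, 0.45 with totals without mitochondrial genes and 0.44 in the strictly filtered cells. Ddit3 held too few UMI, at 59.8 and 30.9 CPM. Edem1 was the 1 lower member, at 99.4, 117 and 117 CPM against 144, 204 and 146 CPM, 1.52-fold (1.19 to 1.95) lower, with log2 ratios of -0.54 and -0.42 without sets 1 and 2, -0.45 with per-cell means and -0.16 with looser gates, all under 1.5-fold. Colonocyte markers moved with this contrast: their 8 genes summed to 619, 595 and 812 CPM in deep crypt secretory sets and 1101, 2614 and 2354 CPM in mucus goblet sets, and the mitochondrial share was 6.32% against 12.5%. Their part in the result was not tested.

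In germ-free mice the deep crypt secretory gate held 20 cells, and 6 members were measured, against 22.2% higher and 14.8% lower among 465 genes. Pdia3 was the 1 called member, at 491 and 741 CPM in deep crypt secretory sets and 319 and 419 CPM in mucus goblet sets, 1.78-fold (1.28 to 2.45) higher. Median-ratio scaling removed that call. Eif2ak3, Hspa5, Hsp90b1, Calr and Sec61b were measured without a call, with ratios of 1.08 (0.709 to 1.62), 1.38 (1.01 to 1.86), 1.23 (0.846 to 1.75), 0.978 (0.606 to 1.54) and 1.30 (0.845 to 1.98).

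**Figure D4:**
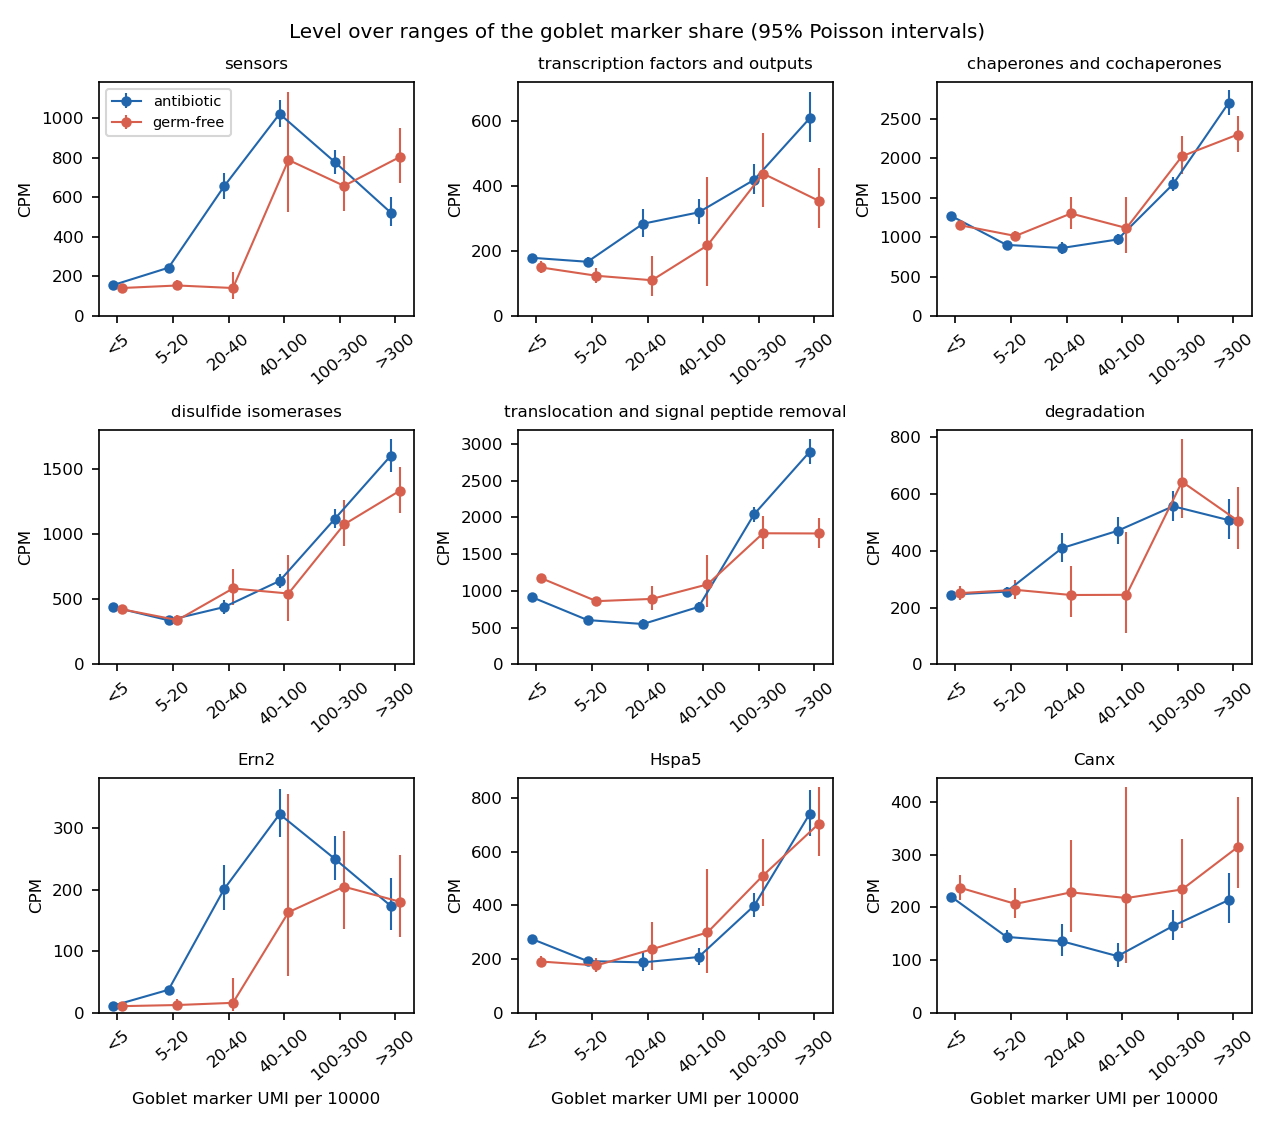
CPM of the roles and of single genes over 6 ranges of the goblet marker share per 10000 UMI, with 95% Poisson intervals, for antibiotic and germ-free cells. In antibiotic cells the sensors are highest at 40 to 100, while chaperones and translocation genes are highest above 300.

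The roles also differed along the goblet marker share itself. In antibiotic cells the summed level of the 4 sensors was 156 CPM below 5 goblet marker UMI per 10000, 244 at 5 to 20, 655 at 20 to 40, 1021 at 40 to 100, 776 at 100 to 300 and 523 above 300. The 10 translocation genes summed to 913, 602, 548, 781, 2041 and 2891 CPM in the same ranges. The 11 chaperones summed to 1269, 901, 862, 970, 1671 and 2699.6 CPM. Their sum below 5 thus lay above that at 40 to 100. Sensors thus reached their highest sum at an intermediate share and the other 2 roles at the highest, in the pooled antibiotic cells. The top range held 23 antibiotic cells. In 50 germ-free cells of that range the sensors summed to 803 CPM (674 to 948). The 17 germ-free cells at 40 to 100 held 788 CPM (528 to 1132), an overlapping interval, so the antibiotic order of these ranges was not seen. From 100 to 300 to above 300, germ-free translocation genes summed to 1783 and 1780 CPM, and chaperones to 2024 and 2298 CPM.

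Crypt cells held more of 3 sensors than colonocytes, while most other members were not called. In antibiotic mice 9 of 41 measured members were higher in the crypt than in the colonocyte gate and 3 were lower, where 43.2% of 9856 genes were called higher and 17.9% lower. The members' median log2 ratio of 0.13 lay under the 0.43 of all measured genes. Ern2 stood at 76.8, 56.7 and 56.6 CPM in crypt sets against 0.771, 2.45 and 1.13 CPM in colonocyte sets, 40.9-fold (27.5 to 63.2) higher without overlap. Eif2ak3, at 112, 101 and 99.5 CPM against 37.8, 33.1 and 30.0 CPM, was 3.14-fold (2.77 to 3.56) higher, and Ern1, at 74.8, 48.0 and 65.3 CPM, 2.20-fold (1.89 to 2.56) higher. Atf6 had a ratio of 1.43 (1.246 to 1.63). None of the 3 measured transcription factors was called, Xbp1 at 62.2, 66.0 and 59.8 CPM against 74.2, 60.1 and 61.4 CPM, and Atf4 and Ddit3 with ratios of 1.09 (0.988 to 1.21) and 1.04 (0.820 to 1.30).

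Of the other roles in antibiotic crypt cells, Pdia5, Pdia6 and Pdia4 of the isomerases were 20.3-fold, 2.11-fold and 1.59-fold higher, Ssr1 2.00-fold, Sec11c 1.81-fold and Herpud1 1.69-fold. The 3 lower members were chaperones. Dnajb9 stood at 14.6, 18.7 and 19.6 CPM against 97.6, 85.1 and 80.7 CPM, 4.74-fold (3.78 to 6.03) lower. Dnajb11, a cochaperone of BiP, was 1.65-fold (1.43 to 1.91) lower. Hspa5 itself stood at 209, 229 and 199 CPM in crypt sets against 352, 343 and 314 CPM, 1.57-fold (1.47 to 1.69) lower with no overlap. Scaling by median ratios moved the median of all genes by -0.56, to -0.13, and that of the members to -0.46. It left 3 members higher and 15 lower, beside 2353 higher and 3311 lower of the 9856 measured genes. The members' median lay under that of all genes on both scales.

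Goblet markers in the crypt gate summed to 394, 366 and 428 CPM in antibiotic sets, against 162, 217 and 250.2 CPM in the colonocyte gate and 20257 CPM in the goblet gate. The 6 deep crypt secretory markers summed to 187 CPM in crypt and 28.3 CPM in colonocyte cells, and none was at 0 in either gate. Their part in the crypt levels of Ern2 and Pdia5 was not tested. Within the antibiotic crypt gate, Ern2 stood at 143, 109 and 98.5 CPM in the sets of the 178 cells led by stem markers and at 36.1, 34.3 and 22.6 CPM in the 250 led by cycling markers, with no overlap. Hspa5 had the reverse order, 109.9, 200.1 and 139.8 CPM in stem-led and 269.9, 241 and 246 CPM in cycling-led cells, as did Hsp90b1 with 243, 251 and 260.2 CPM against 438, 379 and 405 CPM. Deep crypt secretory markers moved with this split, at 567, 216 and 214 CPM in the stem-led and 78.4, 131 and 131 CPM in the cycling-led sets, with no overlap, and their part was not tested.

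In germ-free mice 4 of 25 measured members were higher in the crypt gate and 1 was lower, where 19.8% of 3107 genes were called higher and 22.8% lower. The higher members were Sec11c, Ssr2, Ssr1 and Sec61g, at 2.03-fold, 2.01-fold, 2.01-fold and 1.58-fold, all of translocation and signal peptide removal. Dnajb9, at 60.9 and 14.9 CPM against 75.0 and 75.0 CPM, was 3.77-fold (2.06 to 7.56) lower. Ssr1 and Sec11c were higher, and Dnajb9 lower, in both conditions, but the share of all genes called in both was not taken. None of the 4 sensors reached 100 UMI there. Ern2 stood at 16.6 CPM in crypt and 4.12 CPM in colonocyte cells, and Eif2ak3 at 61.4 and 45.3 CPM. Hspa5 had a ratio of 1.10 (0.884 to 1.38), and none of these 5 calls stood without germ-free set 4. Median-ratio scaling left 3 higher and 2 lower, and per-cell means 4 and 3. Over all measured genes these scalings gave 376 higher and 1004 lower, and 637 and 798.

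Between conditions, the list as a whole differed little over all cells. Of 42 measured members 2 were higher and 2 lower in germ-free cells (4.76% each), beside the 6.75% higher and 7.59% lower of 11059 genes, and the medians were 0.070 and 0.025. Sec61a1, at 48.1, 47.1 and 46.5 CPM in the antibiotic sets against 86.8 and 76.4 CPM in the germ-free sets, was 1.65-fold (1.44 to 1.89) higher. Ssr3 was 1.65-fold (1.45 to 1.86) higher, at 66.4, 58.1 and 50.9 against 134 and 87.1 CPM. Hyou1, at 31.6, 26.9 and 25.6 against 19.9 and 14.5 CPM, was 1.80-fold (1.35 to 2.47) lower, and Sdf2l1 was 1.57-fold (1.07 to 2.38) lower. With per-cell means 9 were higher and none lower, beside 1180 higher and 1345 lower of the 11059 genes. The call of Hyou1 was lost without germ-free set 4 (log2 ratio -0.44) and that of Sdf2l1 without antibiotic set 1 or 2 or germ-free set 3. A level over all cells does not tell fewer cells of a type from less RNA per cell. No sensor was called there, with Ern2 at 30.7 and 31.0 CPM and Eif2ak3 at 69.6 and 76.8 CPM.

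Within the goblet gate 3 chaperones, 1 isomerase and 2 translocation genes were higher in germ-free cells. In all, 6 of 36 measured members were higher in germ-free cells and 1 was lower, against 7.96% and 10.3% of 3994 genes, with medians of 0.067 and -0.019. Canx, at 167, 162 and 131 CPM in the antibiotic sets against 288 and 269 CPM in the germ-free sets, was 1.81-fold (1.42 to 2.29) higher. Hspa5, at 416, 481 and 292 against 719.6 and 559 CPM, was 1.51-fold (1.29 to 1.77) higher. Calr was 1.53-fold (1.22 to 1.91) higher, at 227, 192 and 174 against 234 and 307 CPM. The isomerase Pdia6 was 1.57-fold (1.19 to 2.05) higher. These 3 chaperones and Pdia6 hold the ERSE printed above, but they were picked for printing by these calls. The ERSE was therefore no independent support, and its part was not tested. Of the other members with an ERSE, Hsp90b1 and Dnajc3 were measured without a call, with ratios of 1.18 (0.979 to 1.41) and 1.21 (0.876 to 1.64). Creld2, Syvn1 and Derl3 were not called either. Sec61a1 and Ssr3 were 1.63-fold (1.16 to 2.25) and 1.59-fold (1.18 to 2.12) higher, whereas Sec61g, a smaller subunit of the same channel, was 1.66-fold (1.31 to 2.13) lower, at 431, 373 and 309 against 252 and 210.4 CPM.

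No sensor or transcription factor was called between conditions in the goblet gate. Xbp1 had a germ-free over antibiotic ratio of 0.671 (0.490 to 0.8999), Ern2 0.710 (0.540 to 0.920), Ern1 0.828 (0.510 to 1.29), Atf6 0.919 (0.658 to 1.26) and Eif2ak3 1.05 (0.861 to 1.28). Atf4 and Ddit3 had 1.04 (0.766 to 1.40) and 1.49 (0.919 to 2.33). The 8 goblet markers summed to 17049, 20055 and 22191 CPM in antibiotic and to 55624 and 45406 CPM in germ-free sets of this gate, and the mitochondrial share was 8.81% and 11.3%. Colonocyte markers stood at 688, 1553 and 1563 CPM against 2555 and 2045 CPM, deep crypt secretory markers at 7106, 5316 and 6431 CPM against 2357 and 3466 CPM, and dissociation-response genes at 5516, 5767 and 4324 CPM against 4138 and 3673 CPM. None of these sums overlapped between conditions, and their part in the result was not tested. The mix of subtypes differed, since mucus goblet cells were 73 of 95 germ-free and 93 of 216 antibiotic cells. Within deep crypt secretory and mucus goblet cells Canx stood at 152 and 148 CPM with antibiotics and at 324 and 254 CPM in germ-free mice. Hspa5 stood at 406 and 359 against 735 and 533 CPM, so both genes had the same order of conditions in either subtype. The median cell of the gate held 87.3 goblet marker UMI per 10000 with antibiotics and 374 in germ-free mice. At 40 to 100, 100 to 300 and above 300 per 10000, Hspa5 stood at 207, 399 and 742 CPM with antibiotics. The germ-free values were 299, 511 and 704 CPM, with intervals that overlapped in each range. Above 300, Pdia6 stood at 269 against 238 CPM and Canx at 214 against 314 CPM. The part of the marker share was not tested. The call of Canx stood without each cell set in turn. Those of Sec61a1, Ssr3, Pdia6, Calr and Hspa5 were lost without antibiotic set 3 (log2 ratios of 0.57, 0.43, 0.55, 0.52 and 0.36), that of Pdia6 without antibiotic set 2 (0.52) and that of Hspa5 without germ-free set 3 (0.53). Median-ratio scaling left 4 higher and 2 lower, and totals without mitochondrial genes 5 and 2. Over all measured genes these scalings gave 246 higher and 522 lower, and 299 and 442. Without germ-free set 4, Sec61a1 (0.56), Ssr3 (0.54), Calr (0.28) and Sec61g (-0.51) were lost.

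In the colonocyte gate none of 39 measured members was higher in germ-free cells and 3 were lower, against 8.85% and 10.7% of 8891 genes. Hyou1, at 31.3, 23.9 and 21.6 CPM in the antibiotic sets against 13.6 and 7.503 CPM in the germ-free sets, was 2.97-fold (1.60 to 6.24) lower. Hspa5, at 352, 343 and 314 against 204 and 192 CPM, was 1.72-fold (1.51 to 1.96) lower, opposite to the goblet gate. In cells of at least 1000 UMI and at most 15% mitochondrial UMI its log2 ratio was -0.46, and the call was lost. Sec61g, at 187, 233 and 204 against 157 and 118 CPM, was 1.71-fold (1.45 to 2.03) lower, and without germ-free set 4 its log2 ratio was -0.42. By the rule of the call, none of these 3 sets of values overlapped between conditions. The 3 measured sensors were not called, Ern1 with a ratio of 1.53 (1.13 to 2.04), Atf6 1.10 (0.839 to 1.42) and Eif2ak3 1.39 (1.03 to 1.83). Xbp1, Atf4 and Ddit3 had 0.789 (0.5999 to 1.02), 0.765 (0.617 to 0.938) and 1.28 (0.871 to 1.83). Dissociation-response genes summed to 3240.5, 3438 and 3348 CPM against 2310.2 and 2707 CPM, and the mitochondrial share was 11.2% against 19.0%; their part was not tested. With per-cell means 4 members were higher and 3 lower, with totals without mitochondrial genes 1 and 3, and without germ-free set 4, 8 were higher and 11 lower. Over all measured genes, per-cell means gave 1007 higher and 1232 lower, and totals without mitochondrial genes 938 and 891. The share of all genes without germ-free set 4 was not taken.

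In the crypt gate 11 of 37 measured members were lower in germ-free cells and 1 was higher, against 13.5% lower and 5.01% higher among 6889 genes. The lower members were all 4 sensors, Xbp1, Ddit3, Pdia5, Hyou1, Derl2, Herpud1 and Edem1. The members' median log2 ratio was -0.17, against -0.12 over all genes. Ern2 stood at 76.8, 56.7 and 56.6 CPM in the antibiotic sets against 15.2 and 16.8 CPM in the germ-free crypt sets, 3.70-fold (1.98 to 7.80) lower. Eif2ak3, at 112, 101 and 99.5 against 45.7 and 63.3 CPM, was 1.67-fold (1.197 to 2.41) lower, Atf6 1.79-fold (1.17 to 2.87) lower and Ern1 1.55-fold (1.02 to 2.46) lower. The call of Ern1 was lost without antibiotic set 1 (log2 ratio -0.52), antibiotic set 3 (-0.55) or germ-free set 4 (-0.42). That the antibiotic and germ-free sets did not overlap for any sensor follows from the rule of the call. In germ-free set 3 of this gate 3 counts equal 45.7 CPM. Hyou1 was 3.92-fold (1.64 to 12.3) lower, at 31.1, 34.7 and 31.5 against 15.2 and 7.45 CPM. Xbp1 was 1.64-fold (1.07 to 2.63) lower, Ddit3 2.65-fold (1.10 to 8.35), Derl2 2.30-fold (1.02 to 6.42), Pdia5 2.12-fold (1.08 to 4.73), Edem1 1.96-fold (1.32 to 3.01) and Herpud1 1.85-fold (1.24 to 2.88). The germ-free levels of Ern2, Ddit3, Pdia5, Hyou1 and Derl2 rest on 10, 5, 9, 5 and 6 UMI.

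In the crypt gate Sec61a1, at 65.1, 48.0 and 58.2 CPM in the antibiotic sets against 76.1 and 114 CPM in the germ-free sets, was 1.94-fold (1.46 to 2.56) higher, the 1 higher member. Its value in germ-free set 3 rests on few UMI, as 3 counts equal 45.7 CPM there. The call was lost after thinning and when cells marked as doublets were left out. The median log2 ratio of the 10 translocation genes was 0.30, with 1 called, and that of the 2 measured retrieval genes was -0.33, with none called. Hspa5 and Canx had ratios of 1.01 (0.836 to 1.22) and 1.27 (1.06 to 1.501), and Atf4 0.682 (0.495 to 0.921). Several measures moved with condition in this gate. Deep crypt secretory markers summed to 264, 156 and 168 CPM in antibiotic sets and 91.3 and 117 CPM in germ-free sets, where 4 and 1 of 6 were at 0. All 8 goblet markers together ran the other way, at 394, 366 and 428 against 639 and 649.9 CPM. The 10 dissociation-response genes summed to 3921, 4555 and 4279.9 CPM against 2055 and 2155 CPM. The mitochondrial share was 10.1% and 18.5%. Their part in the result was not tested. With only cells of at least 1000 UMI and at most 15% mitochondrial UMI, 6 members were lower and 6 higher, with per-cell means 7 and 8, and without germ-free set 4 the median was 0.15, with 9 higher. Over all measured genes, per-cell means gave 1301 lower and 687 higher. Such shares were not taken for the filtered cells or without germ-free set 4.

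**Figure D5:**
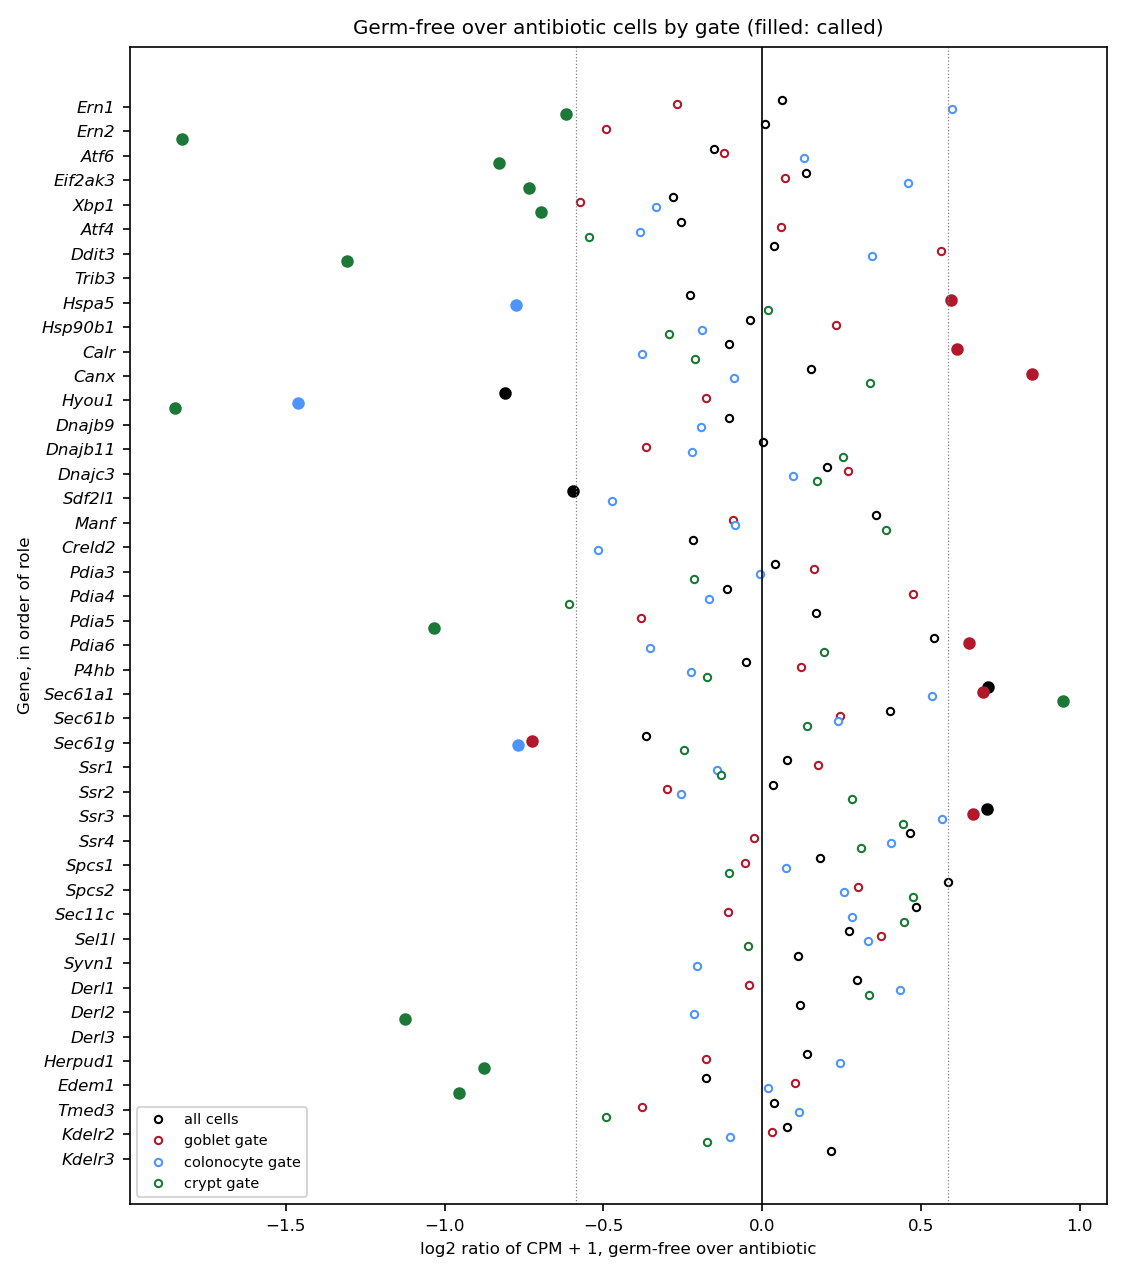
Log2 ratio of CPM + 1, germ-free over antibiotic, for each measured gene over all cells and in the goblet, colonocyte and crypt gates, with called genes filled. In the crypt gate the filled points of sensors and degradation genes lie below 0, and in the goblet gate those of Canx, Hspa5, Calr and Pdia6 lie above 0.

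Other genes of the pathway were read from 7 lists that hold no member. In antibiotic goblet against colonocyte cells 33.1% of all 9241 measured genes were called higher and 20.1% lower. Higher there were 7 of 11 further UPR regulators, 5 of 9 measured ER oxidoreductases and 8 of 14 further translocation genes. So were 9 of 13 genes of glycan transfer and trimming. Of further degradation genes 3 of 11 were higher (27.3%), under the share of all genes. Of ER to Golgi transport 7 of 13 genes were higher and 1 lower, and 4 of 6 measured ATF4 and CHOP targets were higher. Creb3l1, a membrane-bound relative of ATF6, stood at 255, 219 and 256 CPM in goblet sets and 10.8, 11.0 and 9.28 CPM in colonocyte sets, 23.9-fold (20.1 to 28.5) higher. Agr2, the isomerase needed for mucin folding, stood at 4557, 3098 and 2626 CPM against 18.8, 37.3 and 29.7 CPM, 108-fold (99.0 to 118) higher. Dnajc1 was 4.38-fold (3.88 to 4.93) higher, Edem3 2.50-fold (2.19 to 2.86), Sec31a of the COPII coat 2.29-fold (2.05 to 2.54) and Golgb1, a Golgi tether, 2.02-fold (1.88 to 2.17). Erp44, Erp29, Vcp, Ubxn4 and Stt3b were among the most abundant genes of their lists and were not called, with ratios from 0.828 for Erp29 to 1.46 for Ubxn4. In germ-free goblet against colonocyte cells 17.7% of 2715 genes were called higher. The lists, in the order above, had 0 of 2, 2 of 3, 3 of 6, 5 of 7, 1 of 4, 4 of 7 and 0 of 1 measured genes higher.

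Between conditions in the goblet gate, 7.96% of 3994 measured genes were called higher in germ-free cells and 10.3% lower. Of 10 measured further translocation genes 3 were higher, namely Sec62, Srpr and Srp9. Their ratios were 1.68 (1.33 to 2.10), 1.59 (1.16 to 2.15) and 1.92 (1.36 to 2.67). Of 6 further UPR regulators 3 were lower, among them Mbtps1, the protease that releases ATF6, by 2.19-fold (1.16 to 4.69). Atf3, the most abundant ATF4 target, is also 1 of the 10 dissociation-response genes. It was 1.54-fold (1.34 to 1.77) lower in the germ-free goblet gate and 1.83-fold (1.63 to 2.07) lower in the crypt gate. In colonocyte-gate cells Agr2 stood at 18.8, 37.3 and 29.7 CPM in the antibiotic sets against 184 and 94.7 CPM in the germ-free sets, 3.53-fold (2.88 to 4.28) higher. The 8 goblet markers summed to 162, 217 and 250.2 CPM in the antibiotic sets of this gate, against 511 and 570.2 CPM in the germ-free sets. Their part in the Agr2 level was not tested.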

How the data were processed

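The deposited matrix of the authors holds natural log values which, as the values themselves show, equal ln(1 + UMI per 10000 UMI of the cell). Per the submitters' processing notes, Cell Ranger 7.0.0, kallisto, bustools and mm10 were used, with no roles given. Reversing the log gave whole UMI within 0.01 for 100% of 9481333 nonzero values, so UMI were summed over cells and scaled to CPM. The UMI totals were 36530277 in antibiotic and 3100880 in germ-free cells, so 3 counts equal 0.0821 and 0.967 CPM. Numbers of the germ-free cell sets do not match those of the libraries, so cells were assigned to conditions only.

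Log2 ratios were taken of CPM + 1. Intervals are exact Poisson for levels, conditional binomial for ratios and Clopper-Pearson for shares, at 95%, and cover counting error only. With 1 pool per condition no test was made. Gate thresholds were set after the marker distributions were seen. The members and lists were chosen with earlier results of these data known. Given in full were Xbp1, Ern1, Ern2, Atf6, Eif2ak3, Atf4, Ddit3 and Hspa5, up to 6 called members per direction with the largest ratios in each comparison, and the 4 most abundant genes of each further list. Doublets were kept. Scrublet in Scanpy 1.11.5, at a score cut of 0.25, marked 16 cells, which were left out as an alternative. The ratio script was tested on simulated data. Promoter windows came from RefSeq (GRCm38.p6) and matched 35 of 44 members, while retrieval motifs of the proteins were not analysed here. Alternatives were scaling, cell filters, thinning, minimum UMI, pseudocount, gate thresholds, doublets and each cell set left out, with shared barcodes added after the data were seen. Versions were matplotlib 3.10.9, SciPy 1.17.1, pandas 2.3.3, NumPy 2.4.6 and Python 3.11.15.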

Additional observations from a re-analysis of the deposited data

Results flagged for a closer look

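For 5 member and contrast pairs every cell set of one condition moved one way and every cell set of the other the opposite way. None of these differences was tested, and the order of cell sets takes no account of counting error. The share of all genes with such opposite orders was not taken. Intervals given above for germ-free cells included equal levels for Canx between goblet and colonocyte gates and for Hspa5 between crypt and colonocyte gates. The same held for Calr between the goblet subtypes. The log2 ratio of Canx between the goblet and the colonocyte gate was -0.71 with antibiotics and 0.24 in germ-free cells, a difference of 0.94. Hspa5 between the crypt and the colonocyte gate had -0.65 and 0.14, a difference of 0.79. Canx in the same contrast had -0.25 and 0.18, a difference of 0.43. Edem1 there had 0.46 and -0.51, a difference of -0.97. Calr between deep crypt secretory and mucus goblet cells had 0.38 and -0.032, a difference of -0.42.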

How the results depend on the processing

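Of 142 medians under alternatives, 117 moved by no more than the standard deviation over the cell sets, whatever their sign. Of those that moved by more, 17 kept their sign and 8 changed it. Sign changes among the 117 were not counted. For germ-free over antibiotic in all cells the median was 0.25 with only cells of at least 1000 UMI and at most 15% mitochondrial UMI, 0.23 without germ-free set 4 and -0.071 with equal weight of the gates. Goblet over colonocyte in antibiotic cells gave 0.56 with median-of-ratios scaling, 0.55 with per-cell means, 0.38 after thinning and 0.73 with looser gates. The same in germ-free cells gave 0.81 with totals without mitochondrial genes, 0.76 with median-of-ratios scaling, 0.92 with per-cell means, 0.65 with strict cells, 0.93 with a pseudocount of 5, 0.95 without germ-free set 3, 0.84 with stricter and 0.75 with looser gates and 1.02 without the gate markers. Crypt over colonocyte gave -0.46 with median-of-ratios scaling and -0.036 with per-cell means in antibiotic cells, and 0.21 with strict cells in germ-free cells. Germ-free over antibiotic gave 0.32 with per-cell means and 0.26 without germ-free set 4 in the goblet gate, 0.057 with strict cells in the colonocyte gate, and 0.072 with per-cell means, 0.11 with strict cells and 0.15 without germ-free set 4 in the crypt gate. Sec61g in germ-free over antibiotic goblet cells had 0.16 after thinning. The cause was not tested. Over 1043 alternatives of named calls, 191 were no longer called. Thinning removed 59 of 67, strict cells 22 of 67, stricter gates 16 of 63, per-cell means 11 of 68, looser gates 10 of 64 and median-of-ratios scaling 9 of 68. Leaving out germ-free set 4 removed 22 of 38, and germ-free set 3 removed 9 of 38. Thinning leaves few UMI, so lost calls there reflect fewer measured genes in part.

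Counts of called members that moved by over 1.5 times were these. They are listed without the share of all genes called under each alternative. For germ-free over antibiotic, all cells, 2 higher became 7 with thinning, 8 with strict cells, 9 with per-cell means, 2 to 8 without single cell sets. The 2 lower became 0 with per-cell means or strict cells, 1 with thinning or the larger pseudocount, 1 to 3 without single cell sets. For goblet gate over colonocyte gate, antibiotic, 29 higher became 4 with thinning, 19 with median ratios. The 2 lower became 4 with median ratios. For goblet gate over colonocyte gate, germ-free, 21 higher became 0 with thinning, 7 with strict cells, 0 to 18 without single cell sets. The 0 lower became 1 with totals without mitochondrial genes or median ratios or per-cell means. For crypt gate over colonocyte gate, antibiotic, 9 higher became 1 with thinning, 3 with median ratios. The 3 lower became 6 with stricter gates, 15 with median ratios. For crypt gate over colonocyte gate, germ-free, 4 higher became 0 with thinning, 2 with strict cells or stricter gates, 9 with no minimum, 0 to 2 without single cell sets. The 1 lower became 0 with strict cells or thinning or stricter gates, 2 with median ratios or looser gates, 3 with per-cell means or no minimum, 0 without either cell set. For deep crypt secretory gate over mucus goblet gate, antibiotic, 16 higher became 0 with thinning, 9 with strict cells. The 1 lower became 0 with per-cell means or thinning or the larger pseudocount or looser gates, 2 with strict cells, 0 to 1 without single cell sets. For deep crypt secretory gate over mucus goblet gate, germ-free, 1 higher became 0 with median ratios, 6 with no minimum. The 0 lower became 3 with no minimum. For germ-free over antibiotic, goblet gate, 6 higher became 0 with thinning, 2 with strict cells, 3 with stricter gates, 10 with per-cell means, 1 to 6 without single cell sets. The 1 lower became 0 with thinning, 2 with totals without mitochondrial genes or median ratios or looser gates, 3 with no minimum or stricter gates, 1 to 5 without single cell sets. For germ-free over antibiotic, colonocyte gate, 0 higher became 1 with totals without mitochondrial genes or thinning or no minimum or stricter gates, 2 with looser gates, 4 with per-cell means, 5 with strict cells, 0 to 8 without single cell sets. The 3 lower became 5 with median ratios or stricter gates, 3 to 11 without single cell sets. For germ-free over antibiotic, crypt gate, 1 higher became 0 with thinning or doublets left out, 5 with stricter gates, 6 with strict cells, 8 with per-cell means, 1 to 9 without single cell sets. The 11 lower became 0 with thinning, 6 with strict cells, 7 with per-cell means or stricter gates, 6 to 14 without single cell sets. No paired analysis was possible because the values come from no test; gates were compared within each cell set by order only, and the cell sets of the 2 conditions have no known pairing.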
